A study of Mus musculus with 6 samples.

Results

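Ribosomal protein pseudogenes are copies of the genes that encode the proteins of the cytosolic ribosome. They were taken from the expression table by name, as every mouse gene symbol that starts with Rpl or Rps followed by a digit, p or a and contains "-ps", with an FPKM (fragments of a gene, scaled to the length of its transcript and to the total of the library) of at least 1 in at least 3 of the 6 libraries. This gave 126 pseudogenes of 300 with such a name, in a table of 55774 genes of which 11924 met the same expression filter. They were thus selected on the expression level itself, so their levels are described and not tested.

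Two-cell embryos of female ICR mice, wild type by their labels, were cultured to blastocysts in CZB medium with extracellular vesicles from human Fallopian tubes. The vesicles came from women with endometriosis (oEV-EMT) or from control women (oEV-ctrl), whose surgery was for uterine fibroids in the sample labels but for cervical intraepithelial neoplasia in the study's methods. Each group had 3 libraries of poly(A) RNA from 10 pooled blastocysts each. Blastocysts cultured without vesicles were not sequenced, which the study names as a possible limitation. Whether the 3 pools of a group came from separate vesicle donors or collections is not stated in the sources used here, so p-values measure the spread between these pools.

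A processed pseudogene arises when a messenger RNA is copied back into DNA and inserted elsewhere in the genome, which leaves it without introns and usually without the promoter of its parent. Ribosomal protein genes, whose mRNAs are abundant in the germ line, have left more such copies than most gene families. A recent copy is nearly identical to its parent, so a short read from one can match several places, and some copies keep a reading frame and are annotated as genes.

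Of the 126 pseudogenes, 76 were copies of large-subunit genes and 50 of small-subunit genes. They belonged to 48 parents, of which Rpl31 had the most copies, 8, and 17 parents had 1. The annotation called 117 of them processed pseudogenes, 5 transcribed processed pseudogenes and 4 protein-coding genes (Rpl9-ps6, Rpl10-ps3, Rps12-ps3 and Rpl36a-ps1). The FPKM reached 1 in all 6 libraries for 115 of them and in 3 to 5 libraries for 11, and Rps6-ps2 reached it in the oEV-EMT libraries alone. Of the named pseudogenes left out, 77 were listed at 0 in every library and 97 had some value above 0. Just inside the threshold, the third highest value was 1.07 for Rpl9-ps2 and 1.08 for Rps6-ps2, and just outside it was 0.980 for Rpl18-ps1 and 0.881 for Rpl27-ps2.

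The libraries matched their label of blastocyst. All 7 trophectoderm markers and all 5 epiblast markers were at 1 FPKM or more in every library, as were 3 of 4 primitive endoderm markers, while all 6 cumulus and granulosa cell markers and all 3 oviduct markers were below 1. Of the 3 blood markers, Hbb-bs and Ptprc were listed at 0 and Hba-a1 was at 0.524, 2.22 and 1.34 FPKM in oEV-EMT and 0.699, 0.472 and 1.22 in oEV-ctrl. The summed epiblast markers ranged from 81.7 to 103 FPKM in oEV-EMT and from 38.7 to 61.6 in oEV-ctrl, without overlap. Nanog, Pou5f1 and Fgf4 were each higher in all oEV-EMT libraries, whereas Klf2 and Sox2 overlapped, Sox2 with 3.24, 1.14 and 1.23 FPKM in oEV-EMT and 3.17, 1.99 and 2.14 in oEV-ctrl. The primitive endoderm marker Gata4 was also higher without overlap, at 11.3, 7.60 and 7.46 FPKM against 5.07, 4.19 and 4.17, while Gata6, Sox17 and Pdgfra overlapped. Of all genes tested, 18.1% were higher in oEV-EMT without overlap. The trophectoderm sums overlapped, at 3123 to 4734 and 3075 to 4826, and consisted mostly of Krt8 and Krt18. Taken singly, each of the 7 trophectoderm markers overlapped between groups as well. The part of these values in the results on the pseudogenes was not tested, and in such pools fewer cells of a type and less RNA per cell cannot be told apart. Read totals are not given. From the steps between low values the deepest library (oEV-EMT 1) was about 2.02 times as deep as the shallowest (oEV-ctrl 1), although only 45.7% to 60.7% of those values lay within 0.1 of a whole fragment.

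The sequences on which the results turn are shown first, because how far a copy differs from its parent sets which reads can tell them apart. They are stretches of the annotated GENCODE M21 transcripts on GRCm38, aligned to the coding sequence of the parent, with positions counted from 1 at the A of the parent's start codon. Capitals mark each base that differs from the parent. Rpl30, a protein of the large subunit, has the copies Rpl30-ps9 (chromosome X, 105278637 to 105278981, minus strand) and Rpl30-ps10 (chromosome X, 71803688 to 71804034, plus strand), both between annotated genes. These are coding bases 1 to 110 (from base 4 in Rpl30-ps9, whose annotated transcript lacks the start codon). The copies share the substitution G96A, and Rpl30-ps10 has G10T and C20T besides.
Rpl30: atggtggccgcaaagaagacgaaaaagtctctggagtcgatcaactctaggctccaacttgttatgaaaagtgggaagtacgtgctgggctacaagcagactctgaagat
Rpl30-ps9: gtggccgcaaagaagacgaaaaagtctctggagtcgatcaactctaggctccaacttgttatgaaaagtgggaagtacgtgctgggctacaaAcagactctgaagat
Rpl30-ps10: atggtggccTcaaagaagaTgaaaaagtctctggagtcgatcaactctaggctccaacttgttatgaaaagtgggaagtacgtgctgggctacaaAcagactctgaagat

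Rps19, a protein of the small subunit, has the copies Rps19-ps2 (chromosome 14, 52902793 to 52903230, plus strand, between genes) and Rps19-ps6 (chromosome 12, 110898114 to 110898551, plus strand, in an intron of Tecpr2). Bases 331 to 410 of the coding sequence are shown, where Rps19-ps2 has G339A, G369A, G372A, C390T and G406A and Rps19-ps6 has G369A, G372A and C390T.
Rps19: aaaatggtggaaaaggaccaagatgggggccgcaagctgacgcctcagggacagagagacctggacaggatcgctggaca
Rps19-ps2: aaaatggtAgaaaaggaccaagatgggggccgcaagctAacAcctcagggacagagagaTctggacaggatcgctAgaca
Rps19-ps6: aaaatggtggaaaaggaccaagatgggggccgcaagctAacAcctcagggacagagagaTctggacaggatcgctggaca

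Rpl36a-ps3 (chromosome 6, 136488807 to 136489127, plus strand, between genes) carries the name of Rpl36a, a large-subunit gene, but not its sequence. Its first 90 coding bases hold 14 differences from Rpl36a, and Rpl36al, an expressed gene closely related to Rpl36a, holds the same 14 there.
Rpl36a: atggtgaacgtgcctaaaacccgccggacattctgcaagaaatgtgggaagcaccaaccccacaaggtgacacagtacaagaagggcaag
Rpl36a-ps3: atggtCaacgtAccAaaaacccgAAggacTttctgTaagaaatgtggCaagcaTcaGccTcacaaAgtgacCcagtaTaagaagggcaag
Rpl36al: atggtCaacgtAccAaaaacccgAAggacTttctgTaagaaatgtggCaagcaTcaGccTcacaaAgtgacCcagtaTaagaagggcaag

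Over its 321 bases Rpl36a-ps3 differed from Rpl36a at 40 positions (87.54% identity, the lowest of the 126) and from Rpl36al at 1 (99.69%). It was therefore read beside Rpl36al as well as beside the parent of its name. Across the 126 pseudogenes the median identity to the coding sequence of the parent was 99%, and 125 were annotated as a single exon, with Rpl29-ps2 the exception. The start codon was kept in 113, and 80 had an open frame of the same number of codons as the parent, 32 of them with no amino acid difference. A shift of the frame was found in 19. By position, 76 lay between genes, 44 in introns and 6 on exons of other genes.

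To see which copies a short read could tell apart, each annotated transcript was divided into all its stretches of 50 bases. Every one of the 126 had at least 1 stretch found in another gene, 123 shared stretches with the named parent, and 80 shared at least 50% of theirs with it. For 25 pseudogenes no stretch at all was unique, and for 26 at least 50% were. The 3 that shared none with the parent were Rpl36a-ps3, Rpl23a-ps2 and Rpl9-ps2. For 80 of the 126 the parent was the gene that shared most, or tied with it, and for the rest it was not. Rps19-ps2 is such a case, since all of its stretches lie in Rps19-ps1.

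The levels of the pseudogenes ran from 0.902 FPKM (Rps6-ps2) to 1964 FPKM (Rps2-ps13), as means of 6 libraries, with a median of 28.5. 43 had a mean of 100 FPKM or more and 41 a mean below 10. FPKM is a level per length, so a pseudogene can be set beside its parent, but with shared reads the values of both depend on how the program that made them divided those reads. The pseudogene had a median level of 7.27% of its parent's. It was below 10% for 65 of the 126 and below 1% for 32. Levels went with shared sequence, as the plot of levels against the parent shows. The 26 with at least 50% of stretches unique had a median of 4.21 FPKM and 0.688% of the parent, none above 30.8 FPKM, and the 25 with no unique stretch had a median of 201.6 FPKM and 23.3% of the parent. Whether the high values of the latter are RNA of the pseudogenes or reads of the parents was not tested.

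**Figure D1:**
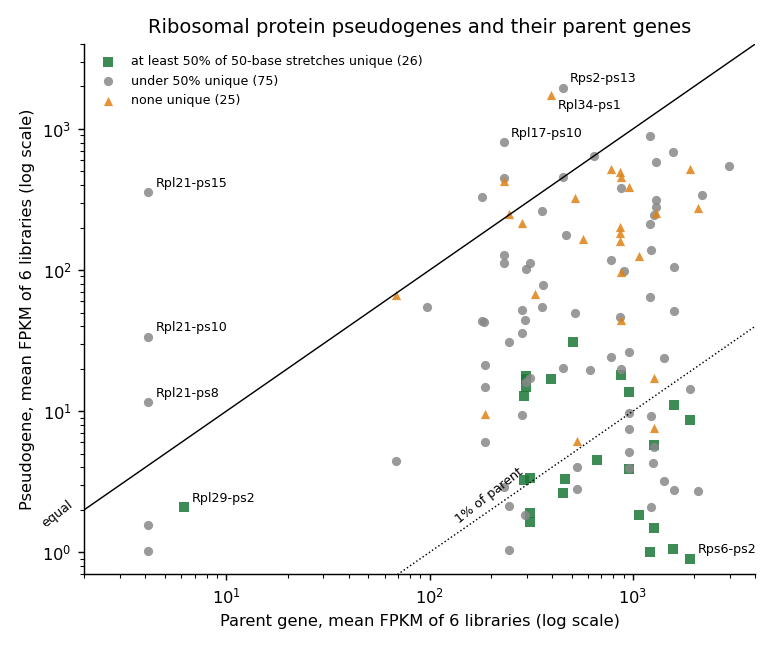
Mean FPKM over 6 libraries of each of the 126 pseudogenes (vertical, log scale) against that of its parent gene (horizontal, log scale), with marker shape by the share of 50-base stretches found in no other gene. The solid line marks equal levels and the dotted line 1% of the parent; pseudogenes with at least 50% unique stretches (squares) lie at 30.8 FPKM or less, while 11 pseudogenes lie above the line of equality.

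The 11 pseudogenes above their own parent were copies of Rps2, Rpl34, Rpl17, Rpl21, Rpl3 and Rpl7a. Rps2-ps13 (chromosome X, 52898588 to 52899469), a copy of the small-subunit gene Rps2 with an intact frame and no amino acid difference, had the highest level of all, with 1217, 3024 and 1891 FPKM in oEV-EMT 1 to 3 and 2333, 1402 and 1920 in oEV-ctrl 1 to 3. It was at 4.35 times the 452 FPKM of Rps2. The groups overlapped widely, and 38 genes shared at least 10% of its stretches. Rpl34-ps1 (chromosome 6, 71124610 to 71124963), whose stretches all occur elsewhere, followed with 1813, 1402 and 2145 FPKM in oEV-EMT and 1590, 1884 and 1620 in oEV-ctrl, which was 4.43 times Rpl34. The copies of Rpl17 also included 3 that exceeded their parent at 231 FPKM, with Rpl17-ps10 at 3.49 times, Rpl17-ps3 at 1.95 times and Rpl17-ps5 at 1.86 times. Rpl3-ps1 stood at 1.83 times Rpl3, while Rps2-ps10 and Rpl7a-ps11 were at 1.01 times their parents, a difference within the spread of the libraries.

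The copies of Rpl21 were the extreme. The parent Rpl21, a large-subunit gene, was listed at 6.78, 2.94 and 5.65 FPKM in oEV-EMT and 2.40, 5.20 and 1.78 in oEV-ctrl, whereas Rpl21-ps15 (chromosome X, 151215167 to 151215649, in an intron of Wnk3) was at 298, 287 and 341 FPKM in oEV-EMT and 463, 370 and 376 in oEV-ctrl. Rpl21-ps15 was thus at 86.3 times its parent, Rpl21-ps10 at 8.17 times and Rpl21-ps8 at 2.82 times. Rpl21-ps15 encodes the same protein sequence as Rpl21, and 56 genes shared at least 10% of its stretches. 3 unnumbered relatives, Gm10163, Gm10240 and Gm13370, were at means of 526, 415 and 356 FPKM. Rpl21 itself held 0.181% of the summed FPKM of its 59 related genes. Rpl29 was the other parent that held almost none of its family, at 6.20 FPKM and 0.516% of the sum over 39 genes. For these parents a comparison of pseudogene with parent rests on a low and variable denominator.

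The comparison of oEV-EMT with oEV-ctrl asked whether any pseudogene differed between the blastocysts of the 2 cultures. None of the 126 passed the study's thresholds (by limma, an adjusted p of at most 0.05 together with a change of at least 1 on the log2 scale in either direction), and neither did any of the 11924 genes tested (0% of all). The study applied these thresholds with DESeq2 and did report differentially expressed genes, so the count here is not comparable with its own. In simulated data the same fit and thresholds called 0% of genes with a log2 change of 1 and 83.2% with a change of 2. An absence of calls therefore does not exclude a change of about 1. Below those thresholds, more pseudogenes were lower than higher in oEV-EMT. At an unadjusted p of at most 0.05, 21 of 126 (16.7%) were lower and 1 (0.794%) was higher, beside 2.55% lower and 12.8% higher of all genes tested. The groups did not overlap with lower values in oEV-EMT for 25 (19.8%) and with higher values for 5 (3.97%), beside 4.34% and 18.1% of all genes. The median difference of the pseudogenes was -0.18 on the log2(FPKM + 1) scale, oEV-EMT minus oEV-ctrl, while that of all genes was 0.17, so that the pseudogenes lay at a median of -0.35 relative to all genes. Of the 126, 107 (84.9%) were below the median of all genes. Scaling moved these counts. With median-of-ratios scaling, which brought the all-gene median to 0.0099, 34 pseudogenes were lower and 0 higher at that p (all genes 762 lower and 767 higher), and the groups did not overlap for 37 lower and 1 higher (all genes 1224 lower and 1174 higher).

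The genes that encode the ribosomal proteins are given for comparison, without a test of the difference from the pseudogenes. Of 77 cytosolic ribosomal protein genes, 5 were lower and 1 was higher at an unadjusted p of at most 0.05, with a median difference of -0.02 and 59 of 77 (76.6%) below the all-gene median. Among the 48 parents 3 were lower (Rpl36a, Rpl39 and Rps23) and 1 was higher (Rpl29). Of 8 ribosomal protein paralogs tested, Rpl36al was lower and 1 was higher. The pseudogenes share sequence with each other and with the parents, so these counts are not of independent genes.

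Medians below 0 were seen in several kinds of pseudogene. Lower is counted here at an unadjusted p of at most 0.05, at which 2.55% of all genes were lower and 12.8% higher. Where reads are most nearly specific, with at least 50% unique stretches, the median was -0.15, with 3 of 26 lower and 0 higher. Without overlap, 4 of these 26 were lower (15.4%) and 3 higher (11.5%), beside 4.34% and 18.1% of all genes. With no unique stretch the median was -0.18, with 6 of 25 lower and 0 higher. Without overlap, 5 of these 25 were lower and 1 was higher. Copies of small-subunit genes had a median of -0.32 with 10 of 50 lower, and copies of large-subunit genes -0.11 with 11 of 76 lower. Pseudogenes in introns had a median of -0.29 with 6 of 44 lower, and those between genes -0.08 with 14 of 76 lower. With a parent-length frame the values were -0.11 and 15 of 80, and without it -0.22 and 6 of 46. The differences between these classes were not tested.

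Rpl30-ps9 had the largest difference. Its FPKM was 9.75, 14.4 and 9.60 in oEV-EMT 1 to 3 and 32.8, 28.8 and 32.0 in oEV-ctrl 1 to 3, so the highest oEV-EMT library was under the lowest oEV-ctrl library. The means were 11.3 ± 2.74 and 31.2 ± 2.15 FPKM (SD, n = 3), a log2 difference of -1.41 (SE 0.225, adjusted p = 0.0951 by limma). Rpl30-ps10 had 7.28, 9.98 and 6.26 FPKM in oEV-EMT and 18.7, 24.9 and 21.6 in oEV-ctrl, again without overlap, and a difference of -1.38 (SE 0.236, adjusted p = 0.0951 by limma). The parent Rpl30 did not separate the groups, with 194.5, 195.7 and 129 FPKM in oEV-EMT and 151, 246 and 201.5 in oEV-ctrl and a difference of -0.20. Relative to Rpl30 in the same library, Rpl30-ps9 was lower by a log2 difference of -1.21 and Rpl30-ps10 by -1.18. Both had an exact two-sided permutation p of 0.1, the smallest that 3 libraries against 3 allow, and 0.467 after adjustment over the 126 pairs.

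The other copies of Rpl30 lay on the same side. Rpl30-ps8 differed by -0.83 and Rpl30-ps1 by -0.84, with some overlap between groups in each, and both carry the substitution G96A too. The gene that shared most stretches with all 4 was not Rpl30 but the copy Gm12191, which holds 97.6% of those of Rpl30-ps9 and 93.3% of those of Rpl30-ps10. Gm12191 was at 63.7, 77.1 and 48.6 FPKM in oEV-EMT and 151, 144 and 132 in oEV-ctrl, without overlap and with a difference of -1.18. When the 12 genes that share Rpl30 sequence were summed, the levels were 320, 325 and 212 FPKM in oEV-EMT and 391, 502 and 421 in oEV-ctrl, a log2 difference of -0.63 (exact permutation p = 0.1, two-sided). Rpl30 made up 51.5% of the family sum.

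**Figure D2:**
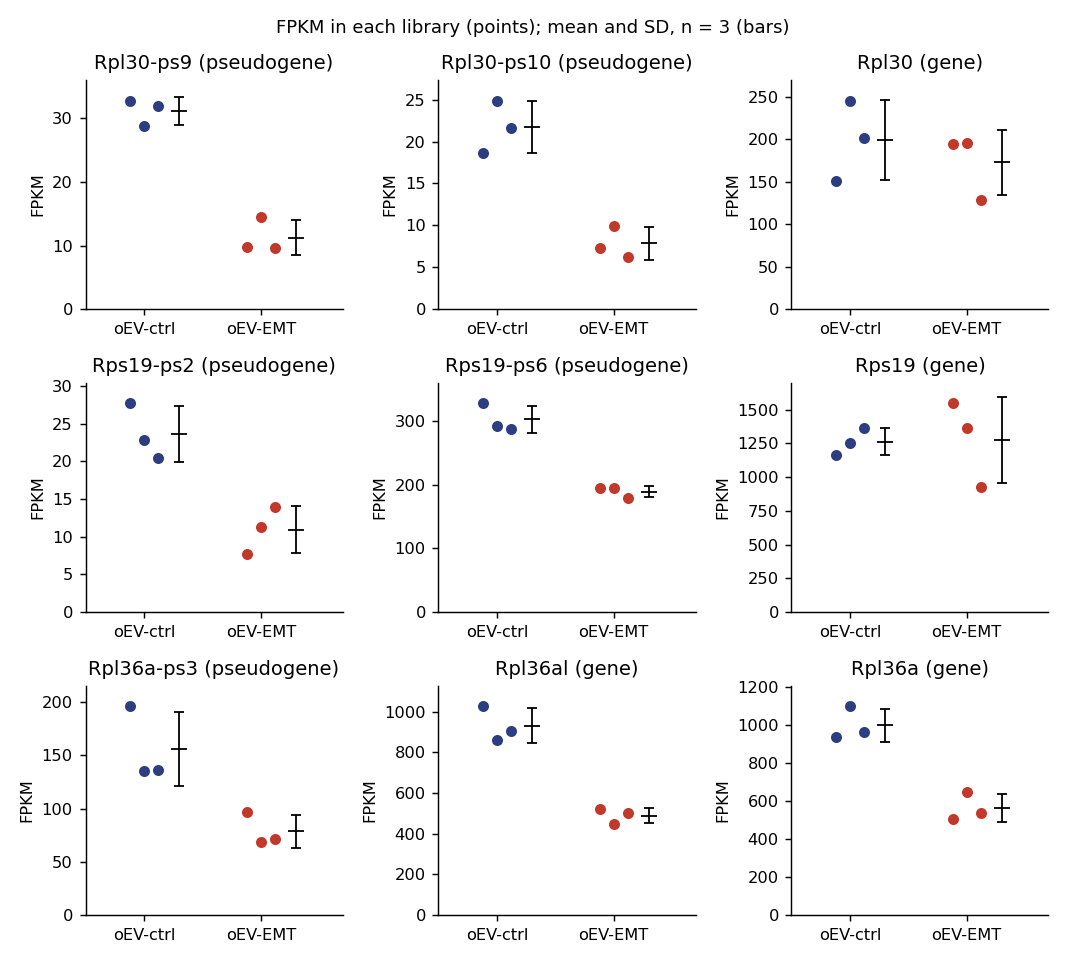
FPKM in each of the 3 oEV-ctrl and 3 oEV-EMT libraries (points) with mean and SD (bars, n = 3) for 5 pseudogenes and for Rpl30, Rps19, Rpl36al and Rpl36a, each axis starting at 0. The groups do not overlap for the 5 pseudogenes, Rpl36al and Rpl36a, and overlap for Rpl30 and Rps19.

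The Rpl36a copies were lower together with their parent. Rpl36a was at 506, 647 and 538.5 FPKM in oEV-EMT and 937, 1100 and 967 in oEV-ctrl (-0.83, adjusted p = 0.118 by limma). Rpl36a-ps2, which lies in an intron of Ddah1 on the same strand and is identical to the coding sequence of Rpl36a, was at 410, 428 and 290 FPKM against 593, 722 and 663, a difference of -0.83. Rpl36a-ps1, annotated as protein-coding, was at 18.5, 11.9 and 18.4 FPKM against 38.5, 29.0 and 30.1, a difference of -0.97. Neither overlapped. Relative to Rpl36a the differences were 0.0065 and -0.14, with overlap between groups in each. Of the 50-base stretches of the Rpl36a coding sequence 0% were unique, so these gaps depend on how shared reads were divided. Whether copy and parent changed together was not tested. The host Ddah1 had a mean of 63.4 FPKM, below that of Rpl36a-ps2. Rpl36a-ps3 was at 96.4, 68.3 and 71.4 FPKM in oEV-EMT and 196, 135 and 137 in oEV-ctrl, without overlap (-0.97, SE 0.228, adjusted p = 0.144 by limma). Its near-identical relative Rpl36al was at 519, 449 and 499.5 FPKM against 1027, 860 and 906, also without overlap (-0.93, adjusted p = 0.101 by limma). The 2 expressed genes and their 3 copies therefore stood at -0.83 to -0.97, beside the all-gene median of 0.17. The copies share sequence with these genes, so the values are not independent.

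Among the 6 copies of Rps19, 2 are described with their parent. Rps19, at 1546, 1361 and 925 FPKM in oEV-EMT and 1167, 1255 and 1366 in oEV-ctrl, had a difference of -0.01. Rps19-ps6 was at 194, 194.5 and 179 FPKM against 328, 292 and 288, without overlap (-0.67, SE 0.176, adjusted p = 0.164 by limma). Rps19-ps2 was at 7.70, 11.2 and 13.9 FPKM against 27.7, 22.8 and 20.4, without overlap (-1.07, SE 0.252, adjusted p = 0.146 by limma). Relative to Rps19 these were -0.66 (exact permutation p = 0.1) and -1.06 (exact permutation p = 0.2). The gap of Rps19-ps2 was -0.69 without oEV-EMT 1 and -1.45 without oEV-EMT 3, the libraries with the highest and the lowest value of Rps19. The 6 Rps19 copies had differences from -1.07 to -0.07.

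**Figure D3:**
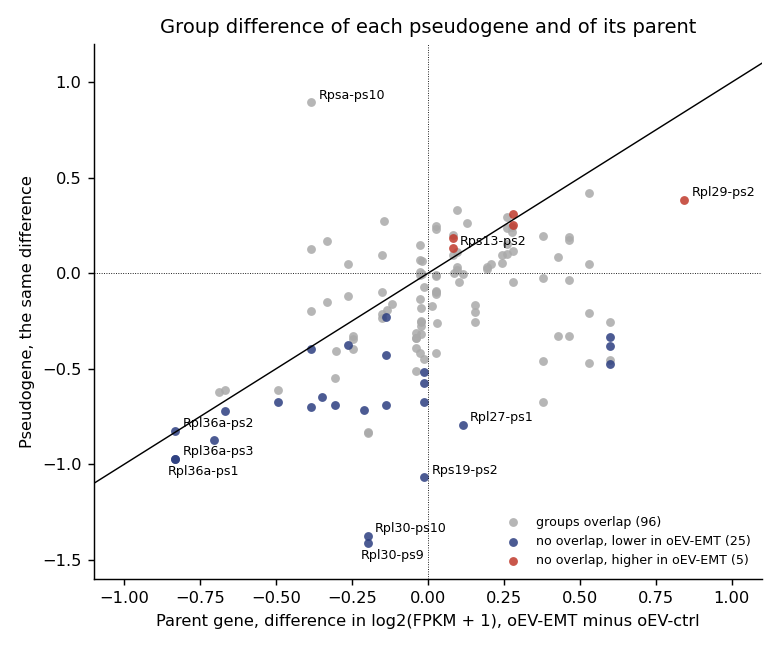
Difference in log2(FPKM + 1), oEV-EMT minus oEV-ctrl, of each pseudogene (vertical) against that of its parent gene (horizontal), coloured by whether the 3 libraries of each group overlap. On the diagonal both differ equally; 96 of 126 pseudogenes lie below it, and Rpl30-ps9 (-1.21) and Rpl30-ps10 (-1.18) lie farthest below while Rpsa-ps10 (1.28) lies farthest above.

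Further pseudogenes were lower in oEV-EMT, some at low levels and some beside parents that also were. Rpl27-ps1, a copy of a large-subunit gene, was at 1.78, 2.07 and 1.29 FPKM against 3.31, 3.51 and 4.26 (-0.80, adjusted p = 0.165 by limma), without overlap, while Rpl27 at a mean of 2094 FPKM differed by 0.11. The sum with its parent and the other copy of Rpl27 stood at 0.10, but Rpl27-ps1, at 0.129% of its parent, hardly enters that sum. Rpl39-ps differed by -0.62 beside Rpl39 at -0.69, and Rps23-ps2 by -0.72 beside Rps23 at -0.67. In each of these pairs both stood on the same side. The groups overlapped for Rpl39-ps but not for Rps23-ps2. Rps24-ps3 (-0.65), Rps27a-ps2 (-0.72) and Rpl38-ps1 (-0.69) did not overlap between groups either. Rps24-ps3 stood beside Rps24 at -0.35, which was also without overlap. Rps27a-ps2 had a mean of 337.5 FPKM and stood beside Rps27a at -0.21, whose groups overlapped. Apart from Rpl27-ps1, the pseudogenes of this paragraph were named after their values were seen, as were Rpl30-ps1, Rpl30-ps8, Rps19-ps1 and the Rpl35a copies.

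Higher values were few. Rpsa-ps10 (chromosome 3, 150072658 to 150073542, minus strand), a copy of the gene of the small-subunit protein that is also known as the laminin receptor, was at 202, 94.5 and 140 FPKM in oEV-EMT and 117, 63.8 and 54.4 in oEV-ctrl. The groups overlapped, since oEV-ctrl 1 was above oEV-EMT 2, and the difference was 0.89 (SE 0.344, adjusted p = 0.267 by limma). The parent Rpsa was at 346, 238 and 230 FPKM against 431, 298 and 330, a difference of -0.38, which left Rpsa-ps10 1.28 above it on the log2 scale, the largest gap in that direction (exact permutation p = 0.1, adjusted 0.467). The sum of Rpsa and its copies differed by -0.085. Among the 5 pseudogenes without overlap and higher in oEV-EMT, Rpl29-ps2 differed by 0.38 beside Rpl29 at 0.84, Rps6-ps1 by 0.25 and Rps6-ps2 by 0.31 beside Rps6 at 0.28, Rps13-ps2 by 0.13 and Rps13-ps4 by 0.18 beside Rps13 at 0.08. Rps6-ps2 passed the filter only through oEV-EMT, the group where it was higher. All of these were near the all-gene median of 0.17 except the Rpl29 pair, and with median-of-ratios scaling Rps13-ps2 became -0.067 and Rps13-ps4 -0.0048.

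Over all 126 pairs the pseudogene had the lower log2 difference in 96 and the higher in 30, with a median gap to the parent of -0.15 and a range of -1.21 to 1.28. The gap was under 0.25 in size for 73 pairs. Pairs with the same parent share its values, and up to 8 pseudogenes had the same parent. The gaps of Rpl21-ps8 (-1.08), Rpl21-ps12 (-1.05), Rpl21-ps15 (-0.98) and Rpl21-ps10 (-0.93) rest on the low values of Rpl21. On the positive side, after Rpsa-ps10, stood Rpsa-ps9 (0.51), Rpl3-ps1 (0.50), Rpl22-ps1 (0.42) and Rpl13a-ps1 (0.31). The last pair depended on single libraries. The gap of Rpl22-ps1 was 0.12 without oEV-ctrl 1, 0.18 without oEV-EMT 1 and 0.69 without oEV-EMT 3, and that of Rpl13a-ps1 was 0.086 without oEV-ctrl 1. None of the 126 gaps passed the exact permutation test, whose smallest p of 0.1 gave an adjusted p of 0.467.

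Families of copies showed how alike pseudogenes of the same parent were. In Rpl36a, Rpl30, Rps15a, Rps19, Rpl19, Rpl35a and Rpl21, each with 3 or more copies, every copy had a negative difference under each scaling tried, except that 1 of the 6 Rps19 copies was at 0.0041 when libraries were scaled to equal sums, while the copies of Rpsa ran from -0.70 to 0.89. The Rps15a copies ran from -0.51 to -0.31 beside Rps15a at -0.04, and the Rpl21 copies from -0.48 to -0.26. When each parent was summed with its copies, 4 of 48 families were lower at an unadjusted p of at most 0.05 (Rpl36a, Rpl39, Rps23 and Rps24) and 1 was higher (Rpl29), beside 2.4% and 12.9% of all features in that fit, and the median over families was -0.04. The family sums include only the parent and its listed copies, so reads assigned to relatives of other names, such as Gm12191, are not in them.

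**Figure D4:**
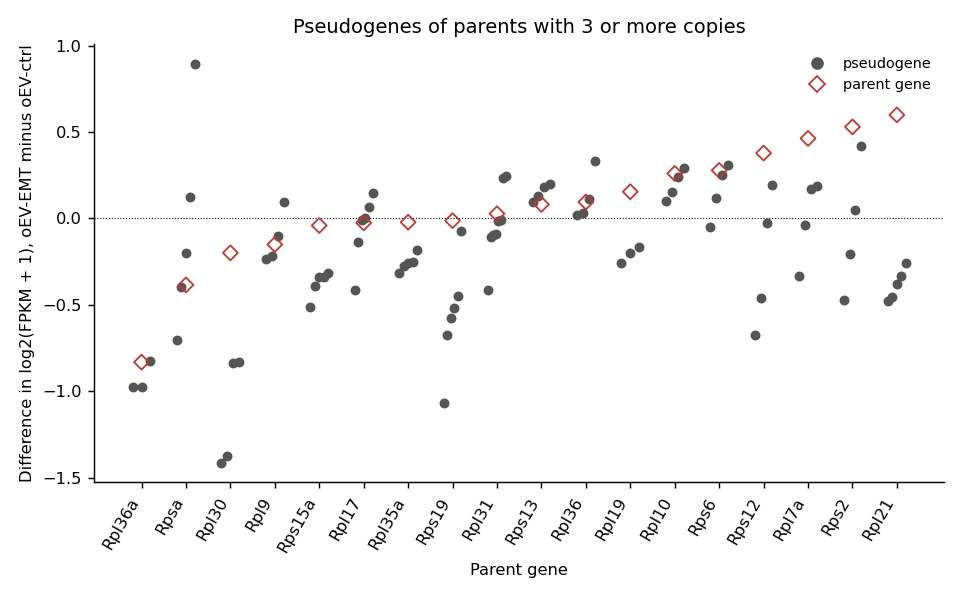
Difference in log2(FPKM + 1), oEV-EMT minus oEV-ctrl, of the pseudogenes (dots) and the parent gene (diamond) for parents with 3 or more copies, ordered by the parent; 1 such parent is not shown. Every copy of Rpl36a, Rpl30, Rps15a, Rps19, Rpl19, Rpl35a and Rpl21 lies below 0 (1 Rps19 copy is at 0.0041 with libraries scaled to equal sums).

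Copies that no read within their annotated sequence can tell apart were still given separate values. Rpl35a-ps2, Rpl35a-ps3, Rpl35a-ps4 and Rpl35a-ps6 are identical over their 333 annotated bases and differ from the coding sequence of Rpl35a by G156A alone. Rpl35a-ps6 was at 337, 420 and 673 FPKM in oEV-EMT and 525, 569 and 465 in oEV-ctrl, and Rpl35a-ps4 at 103, 133 and 212 against 195, 175.5 and 143. Rpl35a-ps6 thus exceeded Rpl35a-ps4 in every library, by 2.70 to 3.28 times, while Rpl35a-ps2 exceeded Rpl35a-ps4 by only 1.12 to 1.17 times. The 4 copies moved together from library to library, with group differences of -0.27 to -0.18 and overlapping groups.

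The identical pair of Rps19 copies behaved otherwise. Rps19-ps1 and Rps19-ps2, both on chromosome 14, share all 438 annotated bases, yet Rps19-ps2 was between 1.17 and 2.78 times Rps19-ps1. Rps19-ps1 was at 6.61, 6.13 and 5.43 FPKM in oEV-EMT and 10.3, 8.19 and 8.86 in oEV-ctrl, also without overlap. Its difference of -0.52 was smaller in size than the -1.07 of Rps19-ps2, and the 6 Rps19 copies ran from -1.07 to -0.07. The sequence around the annotated copies was not examined. Ratios were taken for the 140 pairs of copies of a common parent in which both reached 1 FPKM in all 6 libraries. Over these pairs, the ratio of the copies varied between libraries by a median of 1.69 times. It stayed within 1.5 times for 56 pairs and varied by more than 2 times for 54.

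**Figure D5:**
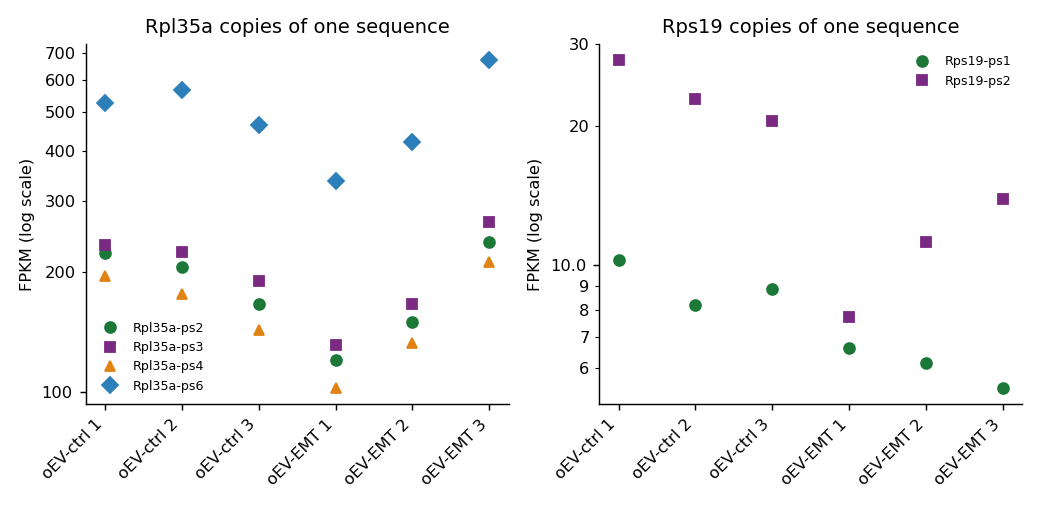
FPKM (log scale) in each of the 6 libraries of 4 Rpl35a copies that are identical over 333 bases (left) and of 2 Rps19 copies identical over 438 bases (right). The Rpl35a copies keep their order in every library, with Rpl35a-ps6 highest, and both Rps19 copies have their 3 lowest values in oEV-EMT.

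The share of the pseudogenes in the summed ribosomal protein level overlapped between groups. Their summed level was 16861, 18847 and 20612 FPKM in oEV-EMT and 20207, 18623 and 19261 in oEV-ctrl, and that of the 48 parents was 42947, 37798 and 42821 against 40650, 43700 and 41745. The pseudogenes made up 28.2%, 33.3% and 32.5% of both sums together in oEV-EMT and 33.2%, 29.9% and 31.6% in oEV-ctrl, with overlap between groups and means of 31.3% ± 2.74 and 31.6% ± 1.66 (SD, n = 3). The sum is carried by pseudogenes such as Rps2-ps13 and Rpl34-ps1 whose groups overlapped, whereas the pseudogenes that separated the groups were mostly at lower levels. Rps26-ps1 shows how far a high-level pseudogene could vary within a group, at 242, 410 and 1172 FPKM in oEV-EMT and 255, 285 and 923 in oEV-ctrl.

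2 limits bear on the calls. With weights for library quality, 4 pseudogenes passed both thresholds, namely Rpl30-ps9 (adjusted p = 0.0333), Rpl30-ps10 (adjusted p = 0.0336), Rpl36a-ps1 and Rpl36a-ps3 (adjusted p = 0.0390 for both), all lower in oEV-EMT, beside 73 higher and 31 lower of all 11924 genes. The method that assigned reads with several matches is not given in the sources used here, so a value of a pseudogene is the level that the program listed there.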

How the data were processed

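RNA was sequenced from 3 oEV-EMT and 3 oEV-ctrl libraries of 10 blastocysts each. The authors selected poly(A) RNA, aligned paired reads to the mouse genome (mm10 in the submitters' processing notes; aligner not given in the sources used here) and assembled them with StringTie. They deposited 1 value per gene and library, taken here as FPKM because the sums per library, 1293175 to 1551567, exceed those of TPM, which the methods name. Of 55774 identifiers, 55227 matched GENCODE M21 (GRCm38), which gave symbols, transcripts and coordinates. Genes at 1 FPKM or more in at least 3 libraries were fitted as log2(FPKM + 1) with limma 3.58.1 (R 4.3.3; trended, robust variance), with Benjamini-Hochberg adjustment over 11924 genes. Fold changes on this scale understate those of low genes. The fit was tested on simulated data, where both thresholds called 0% of genes with a log2 change of 1, 83.2% with 2 and 97% with 3. Gaps to the parent were compared by exact two-sided permutation over libraries. The design had foreseen a count model only for counts. Transcripts were aligned to the parent's principal coding sequence with Biopython 1.88. Pseudogenes, lists and rules were chosen with earlier results of these data known. Those named were the 10 highest, up to 8 per direction without overlap and with the smallest p, the 5 largest gaps per direction, all above their parent, and those next to the threshold. The values of 1 pseudogene are not reported here, though the counts include it. Alternatives were other scalings, filters, pseudocounts, variances, weights, a replicate block, sums with the parent and leaving out each library.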

Additional observations from a re-analysis of the deposited data

How the results depend on the processing

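The count of pseudogenes past both thresholds was 0 in each alternative except library quality weights, where it was 4 (Rpl36a-ps3 -1.02, Rpl36a-ps1 -1.15, Rpl30-ps9 -1.21 and Rpl30-ps10 -1.23 on the log2 scale). The count higher at an unadjusted p of at most 0.05 was 0 with median-of-ratios scaling, upper quartile scaling or no filter. For all genes it was 767 and 550 of 11924 with the 2 scalings, and 1753 of 31842 with no filter. On leaving out a library the count of pseudogenes was 0 to 2 (all genes 940 to 1662). It was 2 without oEV-EMT 2 and 0 without oEV-EMT 3, oEV-ctrl 2 or oEV-ctrl 3. The count lower was 34 and 40 with the 2 scalings (all genes 762 and 963) and 14 to 25 on leaving out a library (all genes 202 to 577). Without overlap, 1 was higher with either scaling and 46 were lower with upper quartile scaling (all genes 1494 lower and 905 higher). Leaving out a library gave 6 to 10 higher and 28 to 41 lower, since fewer libraries overlap less often by construction. For all genes the counts were 2602 to 3651 higher and 702 to 1498 lower. Both the 41 and the 1498 were without oEV-EMT 1. The median difference was -0.41 with upper quartile scaling, which brought the all-gene median to -0.04, and -0.22 to -0.10 on leaving out a library. The median relative to all genes ran from -0.43 to -0.25, the median gap to the parent from -0.21 to -0.11, and the difference in the share of the pseudogenes from -1.21 to 1.33 percentage points. Directions reversed for Rps13-ps2 (-0.067 and -0.14) and Rps13-ps4 (-0.0048 and -0.070) with median-of-ratios and upper quartile scaling. Sums with the parent stood at 0.10 for Rpl27-ps1 and -0.085 for Rpsa-ps10. These pseudogenes were at 0.129% and 35.8% of their parents, so the sums mainly follow the parent and do not give the direction of the pseudogene.

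Whether replicate numbers pair the libraries was not settled. Deviations of same-numbered libraries correlated at 0.12, -0.04 and 0.04 across genes, and those of other pairs at -0.13 to 0.12. With a replicate block 0 pseudogenes passed both thresholds, beside 13 higher and 8 lower of all genes, where the main fit had 0. At an unadjusted p of at most 0.05, 20 pseudogenes were lower and 1 was higher (all genes 281 and 1340). Directions were unchanged for the single pseudogenes refitted. The depth is known only relative to other libraries, so no counting interval is given for low values such as those of Rpl27-ps1.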
